A study of Mus musculus with 31 samples.

Results

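Melanoma cells without the glucocorticoid receptor (GR) were cultured with clobetasol propionate (CP), a synthetic glucocorticoid, or with its solvent DMSO, so that any transcript response to the drug would have to arise without its receptor. The cultures described here are the 6 labelled GRKO, 3 with CP and 3 with DMSO, out of 31 libraries in the series. Parental cultures, 3 with DMSO and 2 with CP, serve as the comparison, and tumor libraries were not used. All 11 cultures are of the 20967 melanoma line from C57BL/6 mice, with an *Nras* allele, +LSL-G12D, that Cre switches on and with Tyr::CreERT2+/o, a tamoxifen-activated Cre under the tyrosinase promoter of pigment cells. GRKO cells also carry a CRISPR-Cas9 edit of *Nr3c1*, the gene of GR. They were grown as colonies from single cells and checked for loss of the protein by western blot, so features of a colony cannot be told apart from the loss of GR. Treatment lasted 48 hours. The treatment label and the methods give 10 µM CP, whereas the library names and the description of the design give 1 µM, and the deposited files do not settle which dose these cultures received.

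GR waits in the cytoplasm until a glucocorticoid binds it, then enters the nucleus and activates genes such as *Tsc22d3*, *Per1* and *Fkbp5* while repressing others. Steroid drugs can also meet other proteins, among them the mineralocorticoid and progesterone receptors, receptors that sense foreign compounds or sterols, and proteins of membranes. GRKO cultures are the place in this design where effects of that second kind would be visible.

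CP left no response that passed the test in GRKO cells, and the largest differences among the cultures did not follow the treatment. The 6 GRKO libraries held between 16866831 and 21740716 counts on genes and detected between 13832 and 14600 genes. At these depths 3 counts, taken here as the floor below which a gene is treated as not measured, correspond to between 0.138 and 0.178 CPM. CPM are counts divided by the size of the library and put on a common scale, here with TMM factors, which correct for differences in library composition. On log2(CPM + 1) of the 10980 genes with a mean of at least 1 CPM, the first principal component held 69.3% of the variance. Its scores were -7.87, -31.4 and 9.93 for DMSO cultures 1, 2 and 3 and -31.6, 16.2 and 44.8 for CP cultures 1, 2 and 3. CP 1 therefore lay beside DMSO 2 and CP 3 at the other end, while CP 2 lay nearer to DMSO 3 than to CP 3 (distances of 36.4 and 45.3, rank correlations of 0.990 and 0.984). All results below take the labels of the cultures as deposited, and whether any label was exchanged was not tested. The rank correlation between CP 1 and DMSO 2, a control, was 0.993, the highest of the 15 pairs, and that between CP 3 and DMSO 2 was 0.942, the lowest. The mean distance between a CP and a DMSO culture was 50.6, and between 2 cultures of the same treatment it was 52.8. CP cultures were thus no farther from DMSO cultures than cultures of 1 treatment were from each other (difference -2.19, one-sided exact permutation test over 20 divisions, p = 0.5, where 0.1 is the smallest possible).

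*Ctgf* and *Anxa1* are examples of genes that vary along this axis. *Ctgf*, a secreted matrix protein that TGF-beta and YAP signaling induce, had 12.4, 88.3 and 11.3 CPM in the DMSO cultures and 70.8, 8.75 and 7.20 CPM in the CP cultures. *Anxa1*, an anti-inflammatory phospholipid-binding protein, had 115, 248 and 96.3 CPM with DMSO and 206, 78.6 and 39.9 CPM with CP. For these genes DMSO 2 and CP 1 were the highest cultures, CP 3 was the lowest, and the treatments overlapped. In bulk RNA, fewer cells that express a gene and less of its RNA per cell cannot be told apart. The share of counts on ribosomal protein genes was 10.1%, 10.3% and 9.86% with DMSO and 10.4%, 8.96% and 8.69% with CP. The share on the 10 most abundant genes was 9.75%, 9.15% and 9.36% with DMSO and 8.83%, 11.4% and 11.2% with CP. Mitochondrial transcripts held 0.784%, 0.917% and 0.885% of counts with DMSO and 0.854%, 0.752% and 0.678% with CP. CP 2 and CP 3 thus stand apart from the other 4 cultures in all 3 shares, and the labels do not say what separates replicate cultures. In the main fits, the p-values below set a difference against the spread between replicate cultures. That spread is estimated over all 11 cultures together, parental ones included.

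**Figure D1:**
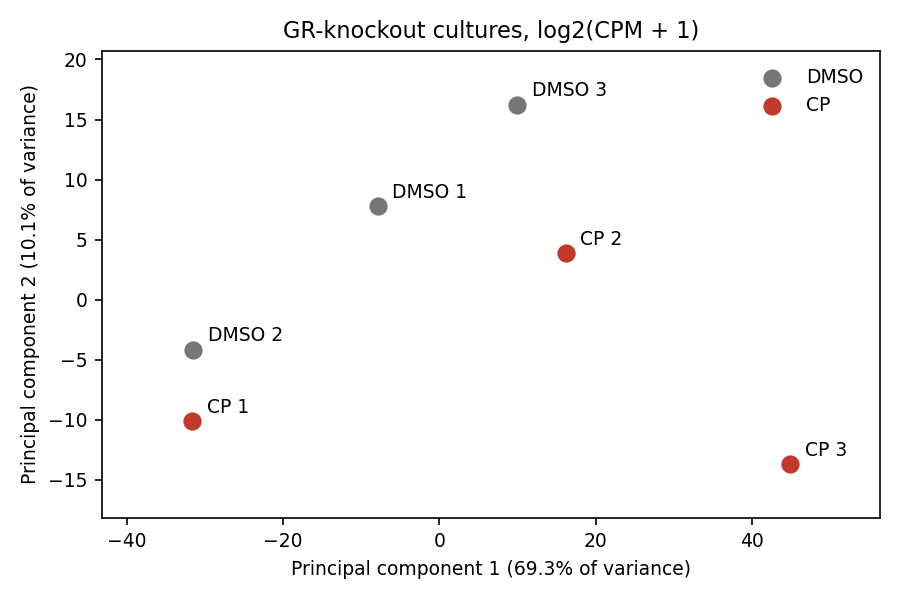
Principal components of the 6 GRKO cultures, computed on log2(CPM + 1) of genes with a mean of at least 1 CPM. Each point is a culture, gray for DMSO and red for CP, and the axes give the share of variance. CP 1 lies next to DMSO 2 along the first component, while the second component places CP 1 and CP 3 lowest and DMSO 3 highest. The plot is a description of the cultures and carries no test.

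The edited gene itself was still transcribed. *Nr3c1* had 24.8, 21.0 and 16.4 CPM with DMSO and 20.9, 22.5 and 13.1 CPM with CP, so the treatments overlapped, and the log2 fold change was -0.14 (95% interval -0.62 to 0.34). Parental cultures had 33.2, 30.0 and 35.6 CPM with DMSO and 39.5 and 33.4 CPM with CP, so every GRKO culture lay below every parental culture, a difference that was not tested. Libraries read from the 3′ end of a transcript say nothing about an edit elsewhere in the gene, and these counts therefore do not check the knockout, for which the study relies on the protein.

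Markers of pigment cells were nearly absent, as were most of those of other cell types. Of 9 melanocyte markers only *Mitf*, the transcription factor of the lineage, passed the filter on low counts, with 4.78, 3.01 and 4.09 CPM with DMSO and 4.96, 5.11 and 5.68 CPM with CP. All 3 CP values lay above the DMSO values (4.59% of all genes), with a log2 fold change of 0.41 (95% interval -0.10 to 0.92). *Sox10*, *Dct*, *Tyr*, *Mlana* and *Kit*, which mark differentiated or migrating pigment cells, had 0 counts in all 6 cultures, so the pigment cell label rests on the origin of the line and not on these transcripts. None of 6 immune markers passed the filter, and *Cd3e*, *Adgre1* and *S100a8* were at 0 throughout. The endothelial and keratinocyte lists had 1 tested member each of 4, *Kdr* with a log2 fold change of -0.41 and *Krt10* with -0.74, and the striated muscle list had 1 of 4, *Acta1*, with 0.27. All 5 fibroblast markers were tested, *Dcn* among them only through parental cultures, as it had 0 counts in every GRKO culture. The median of the fibroblast list was -0.12 with or without *Dcn*, and its most abundant member, the collagen gene *Col3a1*, had 67.4 to 79.2 CPM with DMSO and 61.4 to 81.8 CPM with CP. The list ran from -0.94 to 0.84, and *Col1a2*, a collagen gene with the smallest p of the list, had 1.30, 3.10 and 1.83 CPM with DMSO and 1.60, 0.945 and 0.694 CPM with CP, at -0.94 (95% interval -1.98 to 0.10). No marker of the 6 cell type lists had an unadjusted p under 0.05 (1.89% of all genes).

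Across the transcriptome, CP gave 0 differentially expressed genes (DEGs) among the 12525 genes tested in GRKO cells (0%) with edgeR. A DEG here has an adjusted p under 0.05, where the adjustment limits false calls over all genes tested, and a change of at least 1.5-fold. An unadjusted p under 0.05 was reached by 237 genes (1.89%) in edgeR, fewer than the 626.25 that evenly spread p-values would give, and by 269 in DESeq2, which also called 0 DEGs. In the edgeR fit, 170 of the 237 were higher with CP (1.36% of all genes) and 67 lower (0.535%). Without CP 1, the culture that resembles DMSO 2, there were still 0 DEGs but 1502 genes had an unadjusted p under 0.05, and 52.1% of them were higher with CP. In GRKO cells the lowest adjusted p was 0.760 with edgeR and 0.0622 with DESeq2, and over all alternatives it ran from 0.0622 to 1. The groups did not overlap, meaning that all 3 CP values lay on the same side of all 3 DMSO values, in 946 genes (7.55%), 575 with CP higher (4.59%) and 371 with CP lower (2.96%). Log2 fold changes were above 0 for 53.1% of genes and their median was 0.02. In parental cells the same fit gave 110 DEGs (0.878%), 1062 genes with an unadjusted p under 0.05 (8.48%) and log2 fold changes above 0 for 49.9% of genes. The effect of CP differed between parental and GRKO cells, by the interaction test of edgeR, in 37 genes (0.295%), a count that ran from 17 to 43 when each culture was left out and stood at 17 without parental CP 2, at 19 without parental CP 1, at 22 without GRKO CP 2 and at 23 without GRKO DMSO 1, GRKO DMSO 2 or parental DMSO 1.

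An absent call is informative only as far as the data bound the effect, so each gene was given a 95% interval of its log2 fold change. For 4379 genes (35.0%) the whole interval lay within 1.5-fold in either direction, and for 8217 genes (65.6%) it lay within 2-fold. The fold change that a gene's interval excludes, taken at the end of the interval farther from 0, had a median of 1.66 over all genes, and for 90% of genes the interval ended at or below 4.56-fold. Precision followed the level of a gene. Among the 1955 genes with at least 100 CPM, a median of 1.39-fold was excluded, 65.9% lay within 1.5-fold and 93.8% within 2-fold. Among the 5610 genes between 10 and 100 CPM, the median was 1.49-fold, with 52.5% within 1.5-fold and 88.9% within 2-fold. For 3415 genes between 1 and 10 CPM, the median was 2.16-fold, and 40.8% lay within 2-fold. Below 1 CPM, 1545 genes had a median of 6.07-fold and 0% lay within 2-fold. A change of 2-fold can therefore be excluded for most genes above 10 CPM and for none below 1 CPM. In 151 genes a group with only 0 counts left the interval without a bound. Each interval holds for its own gene and not for all genes jointly.

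**Figure D2:**
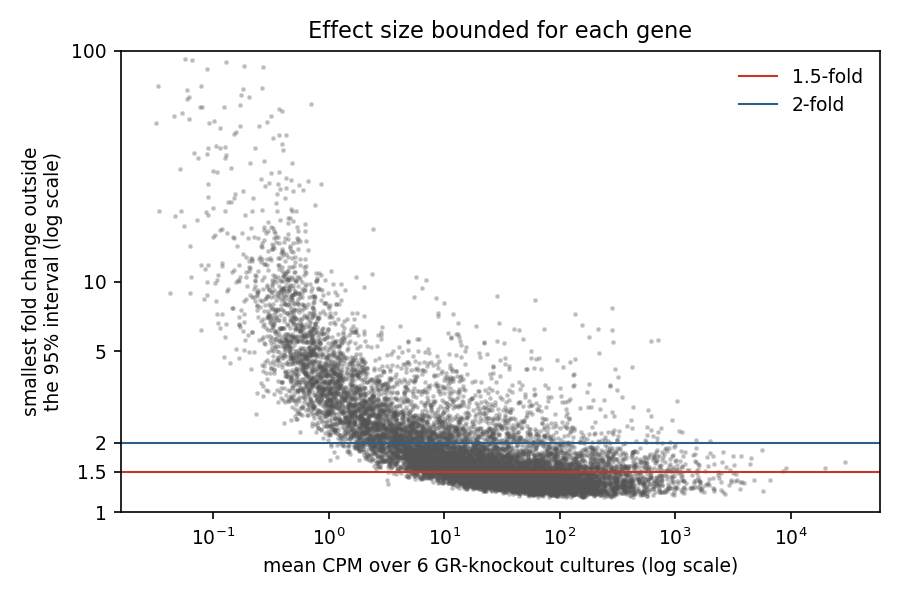
Fold change with CP that the 95% interval of each gene excludes in GRKO cells on a log scale, plotted against the mean level of the gene in the 6 cultures. The value is the end of the interval that lies farther from 0, in either direction, and the horizontal lines mark 1.5-fold and 2-fold. Genes without a bound and genes beyond 100-fold are not drawn. Low values mean that even a small effect would lie outside the interval, and the cloud narrows as the level increases.

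Genes listed as GR targets had no DEG in GRKO cells (0% of all genes). Of 25 listed GR targets, 18 were measured well enough to be tested, 6 with a log2 fold change above 0 and 12 below 0, and their median was -0.05 beside 0.02 for all genes. In 8 of the 18 the interval lay within 1.5-fold (35.0% of all genes did so) and in 14 within 2-fold (65.6% of all genes). Parental cells had 10 DEGs among the same 18 (0.878% of all genes), all higher with CP, with 17 log2 fold changes above 0 and a median of 1.35. The other 7 targets, *Zbtb16*, *Cdkn1c*, *Lcn2*, *Hif3a*, *Pdk4*, *Tat* and *Pck1*, were below the filter, and all but *Cdkn1c* had 0 counts in the 6 cultures.

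Among the feedback and anti-inflammatory targets, *Tsc22d3*, which encodes the glucocorticoid-induced leucine zipper, had 15.9, 18.2 and 19.5 CPM with DMSO and 20.5, 14.5 and 17.0 CPM with CP. The treatments overlap, the interval ran from -0.44 to 0.34, and any change beyond 1.36-fold is excluded, while parental cells had a log2 fold change of 3.09. *Fkbp5*, a co-chaperone that dampens GR, had 34.1, 46.8 and 27.7 CPM with DMSO and 38.7, 28.2 and 15.8 CPM with CP. It follows the order of the first component in the CP cultures, and its interval, -1.22 to 0.44, leaves changes up to 2.34-fold possible. *Per1*, a repressor of the circadian clock, had 7.53, 6.63 and 4.47 CPM with DMSO and 5.53, 5.25 and 5.11 CPM with CP, and its interval ran from -0.78 to 0.32. *Dusp1*, a phosphatase of MAP kinases, and *Anxa1* had the widest intervals, -1.73 to 0.86 and -1.82 to 0.81. *Nfkbia*, the inhibitor of NF-kB, had a log2 fold change of 0.00 with an interval from -0.52 to 0.52.

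The metal-binding and metabolic targets held no DEG in GRKO cells, where 0% of all genes were DEGs. *Mt2*, a metallothionein, had 340, 375 and 324 CPM with DMSO and 418, 342 and 323 CPM with CP in GRKO cells. Its interval ran from -0.27 to 0.39, which excludes changes beyond 1.31-fold, beside a parental log2 fold change of 3.76. *Mt1*, its neighbor in the same family, had 906, 854 and 1049 CPM with DMSO and 820, 1118 and 1371 CPM with CP, with CP 3 the highest culture and CP 1 the lowest. The log2 fold change was 0.24 with an interval up to 0.62, beside 2.23 in parental cells. *Sgk1*, a kinase that regulates ion transport, had 140, 111 and 118 CPM with DMSO and 137, 140 and 137 CPM with CP, and changes beyond 1.35-fold are excluded. *Klf9*, a transcription factor, had 66.6, 74.3 and 56.6 CPM with DMSO and 81.1, 50.6 and 37.3 CPM with CP, with an interval from -0.80 to 0.35. *Glul*, glutamine synthetase, had a log2 fold change of -0.22 with an interval from -0.55 to 0.11. *Angptl4*, an inhibitor of lipoprotein lipase, had 0.14, and *Ddit4*, an inhibitor of mTORC1 signaling, had -0.22. The remaining targets *Errfi1*, *Bcl6* and *Cebpd* lay between -0.06 and 0.09.

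In 2 of the 18 targets the treatments did not overlap, against 7.55% of all genes. *Rgs2*, a regulator of G protein signaling, had 7.12, 6.01 and 6.08 CPM with DMSO and 4.56, 5.11 and 4.23 CPM with CP, a log2 fold change of -0.46 (95% interval -0.91 to -0.01, unadjusted p = 0.0440, adjusted p = 0.976 from edgeR). This direction is opposite to that in parental cells, where its log2 fold change was 3.17. *Cebpb*, a transcription factor of inflammation and differentiation, had 7.64, 7.59 and 5.71 CPM with DMSO and 12.1, 11.2 and 8.71 CPM with CP, a log2 fold change of 0.61 (95% interval 0.14 to 1.08, unadjusted p = 0.0155, adjusted p = 0.976 from edgeR). Parental cells had a log2 fold change of 0.01 for *Cebpb*, and neither gene is a DEG in GRKO cells.

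For most genes that CP moved in parental cells, the GRKO interval did not contain the parental estimate. This comparison takes the parental estimate as exact, whereas the interaction test below counts the error of both genotypes. Of the 110 parental DEGs, 108 had a GRKO interval that does not contain the parental fold change, and the other 2, *Ccdc3* and *Col11a1*, had no bound. In 99 of them any change in the parental direction was bounded below 50% of the parental log2 fold change, and the median bound was 28.1%. In GRKO cells 57 of the 110 had the parental direction and 53 the opposite, with a median of 0.01 in the parental direction beside a median size of 1.48 in parental cells. Genes chosen as DEGs tend to have parental estimates that lean large. The difference itself passed the interaction test in 36 of the 110 (0.295% of all genes), which were chosen on the parental effect that enters it. Left-out cultures changed how many parental DEGs there were to examine: the intervals excluded the parental value in 31 of 31 without parental CP 1, in 36 of 36 without parental CP 2, in 61 of 61 without parental DMSO 3 and in 62 of 63 without parental DMSO 1.

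In GRKO cells 4 of the 110 had an unadjusted p under 0.05 (1.89% of all genes), and 3 of these went against the parental direction. *Ctla2a*, an inhibitor of cathepsin-like proteases, had 1.19, 0.525 and 1.51 CPM with DMSO and 0.571, 0.331 and 0.252 CPM with CP, a log2 fold change of -1.45 (95% interval -2.36 to -0.54). CP 1 lies above DMSO 2, so the treatments overlap, and the gene rests on few counts in GRKO cells. *Zfp697*, a zinc finger gene, had -0.61 (95% interval -1.11 to -0.11) beside 1.45 in parental cells, and the last of the 3 is *Rgs2*. The gene with the parental direction was *Dkk2*, a regulator of Wnt signaling, at -0.37 (95% interval -0.65 to -0.08) beside -0.92 in parental cells, where a change of up to 70.3% of the parental effect is not excluded. *Fstl3*, which binds activin, is the parental DEG with the loosest finite bound, at 89.2% of the parental effect.

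The estimates of the 5 largest parental effects in each direction lay outside the GRKO intervals. The difference itself passed the interaction test in 3 of these 10 genes (0.295% of all genes), which were chosen by their parental effect. *Aldh1a1*, which makes retinoic acid, had 3.43, 2.77 and 3.61 CPM with DMSO and 2.91, 4.92 and 4.73 CPM with CP, a log2 fold change of 0.36 (95% interval -0.67 to 1.39) beside 6.17 in parental cells. *Aldh1a7*, a related enzyme, had -0.01 (95% interval -1.72 to 1.69) beside 5.49, and *Igf2bp1*, an RNA-binding protein, had 0.68 (95% interval -0.91 to 2.28) beside 4.79. *Hrct1* had 0.18 (95% interval -1.41 to 1.77) beside 4.65, and *Foxred2*, a protein of the endoplasmic reticulum, had -0.57 (95% interval -1.94 to 0.80) beside 4.01. These 5 genes are all low in GRKO cells, so their intervals are wide, yet each ends below the parental estimate. Parental DMSO cultures had 12, 0 and 8 counts of *Aldh1a1* and 0, 9 and 0 of *Aldh1a7*. The parental fold changes of *Aldh1a1* and *Aldh1a7* therefore rest on controls near the floor. *Aldh1a1* had a mean of 3.27 CPM in GRKO DMSO cultures and 0.417 CPM in parental DMSO cultures. The interaction test gave *Aldh1a1* an adjusted p of 0.00585 from edgeR and did not pass for *Aldh1a7* (0.148), *Igf2bp1* (0.341), *Hrct1* (0.116) and *Foxred2* (0.0764). On the side of genes lower with CP, *Prkcb*, a protein kinase C, had 6.08, 5.97 and 3.82 CPM with DMSO and 5.31, 5.48 and 7.83 CPM with CP, a log2 fold change of 0.23 beside -3.18 in parental cells. *Spink2*, a protease inhibitor, had 0.24 beside -2.64, and *Itgb3*, the integrin subunit beta 3, had 0.12 beside -2.32. *Slc40a1*, the iron exporter ferroportin, had 1.97, 2.63 and 2.37 CPM with DMSO and 1.88, 1.37 and 1.45 CPM with CP. The CP values of *Slc40a1* all lie below the DMSO values, at a log2 fold change of -0.57 (95% interval -1.34 to 0.21) beside -4.21. *Prl2c3*, of the prolactin family, had -0.87 (95% interval -1.85 to 0.10) beside -3.89, also with no overlap (2.96% of all genes had no overlap with CP lower). Of these 5 genes *Prkcb* and *Spink2* passed the interaction test, with adjusted p of 0.00415 and 0.00785 from edgeR, and *Slc40a1* (0.0544), *Prl2c3* (0.359) and *Itgb3* (0.178) did not.

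**Figure D3:**
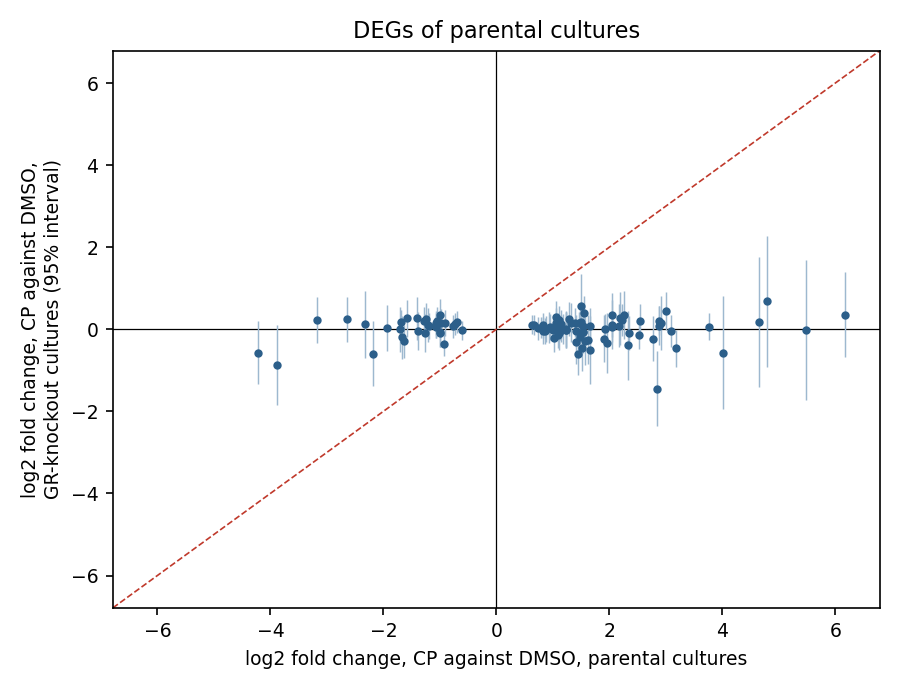
Log2 fold change with CP in GRKO cells against that in parental cells for the 108 parental DEGs whose GRKO interval has a bound. Vertical bars are 95% intervals in GRKO cells, and the dashed diagonal marks equal effects in the 2 genotypes. Most points lie near 0 on the vertical axis, and no bar reaches the diagonal. Among the genes lower with CP in parental cells, *Slc40a1* and *Prl2c3* also lie below 0 in GRKO cells. The 2 parental DEGs without a bound are not drawn.

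The study lists 25 genes that the drug moved both in cultures and in tumors, 24 of them upward, which form its signature, and *Lrrc32* downward. The study chose the list on parental cultures and tumors, so the list is not independent evidence of its direction in the parental cells here. Of the 24, 20 were tested in GRKO cells, 9 with a log2 fold change above 0 and 11 below 0, with a median of -0.04, or -0.05 when *Scara5*, with 5 counts in DMSO 1 and 0 elsewhere, is placed at its bound and *Ccdc3*, at the floor, is left out. The interval lay within 1.5-fold in 5 members and within 2-fold in 13, and the 2 members with an unadjusted p under 0.05, *Rgs2* and *Ctla2a*, were lower with CP (0.535% of all genes). In parental cells 16 of the 20 were DEGs (0.878% of all genes), all higher with CP, with a median of 2.21. With *Lrrc32* added, 21 members were tested, 9 above 0 and 12 below, with a median of -0.05, or -0.14 with the same treatment of *Scara5* and *Ccdc3*. *Adamts1*, a secreted protease, had 23.0, 25.2 and 24.0 CPM with DMSO and 26.0, 26.0 and 21.0 CPM with CP in GRKO cells, which excludes changes beyond 1.30-fold. *Fam46b*, a poly(A) polymerase also named *Tent5b*, had 15.2, 12.7 and 13.5 CPM with DMSO and 11.9, 17.1 and 18.7 CPM with CP. Both genes overlap between treatments, and their parental log2 fold changes were 1.93 and 2.55. *Cyp26b1*, which degrades retinoic acid, had -0.29 in GRKO cells beside 1.57, and *Rnf125*, a ubiquitin ligase, had 0.16 beside 1.32. *Deptor*, an inhibitor of mTOR, was the member without overlap and with CP higher (4.59% of all genes), at 23.8, 15.9 and 23.9 CPM with DMSO and 23.9, 25.5 and 33.8 CPM with CP. CP 1 and DMSO 3 differ only in the second decimal there, and the log2 fold change was 0.39 (95% interval -0.04 to 0.81) beside 1.56 in parental cells. *Ankrd29*, *Kcnj15* and *Cp*, the gene of ceruloplasmin, lay between -0.58 and 0.08 with wide intervals. *Zbtb16*, *Sult1a1* and *Serpina3m* were below the filter with 0 counts in all 6 cultures. *Dpep1*, a dipeptidase, was below it too, with 0 counts in every DMSO culture and 0, 5 and 8 counts with CP. Its parental counts were 0 in each control and 32 in both CP cultures. It was not tested, and CP 1 overlaps the DMSO cultures at 0.

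GARP, which presents latent TGF-beta at the cell surface and which the study places at the center of the drug's action on tumors, was measured at a low level in GRKO cells. Its gene *Lrrc32* had 3.53, 1.10 and 2.91 CPM with DMSO and 1.71, 1.23 and 1.83 CPM with CP, so the treatments overlap. The log2 fold change was -0.66 (95% interval -1.53 to 0.21) beside -1.82 in parental cells, where the gene was not a DEG either (adjusted p = 0.0987 from edgeR). The study, which used DESeq2, called *Lrrc32* lower with the drug in parental cultures and tumors. Its quantitative PCR, at an earlier time, found the transcript reduced in parental but not in GRKO cells. The interaction test here gave an adjusted p of 0.576 from edgeR, and a *Lrrc32* difference as large as 2.88-fold in GRKO cells is not excluded. Among 20 tested members of the GARP and TGF-beta list, 7 had a log2 fold change above 0 and 13 below 0, with a median of -0.18. An unadjusted p under 0.05 was reached by 0 of them (1.89% of all genes). The ligands *Tgfb1*, *Tgfb2* and *Tgfb3* had 0.25, 0.02 and -0.18, and *Ctgf*, also a member, varied with the first component as described above. *Nrros*, which anchors latent TGF-beta as GARP does, was the 1 of 20 without overlap, with CP lower (2.96% of all genes), at 1.40, 1.00 and 1.24 CPM with DMSO and 0.799, 0.425 and 0.820 CPM with CP.

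Among the genes with the smallest p-values in GRKO cells, *Insig1* and *Ank2* lay above 1 CPM in every culture. The others had a mean below 1 CPM with at least 1 of the treatments. *Insig1*, which retains the sterol sensor SCAP in the endoplasmic reticulum, had 33.9, 29.9 and 26.0 CPM with DMSO and 52.9, 50.3 and 46.4 CPM with CP. All 3 CP cultures are higher, CP 1 included, at means of 29.9 ± 3.98 and 49.8 ± 3.27 CPM (SD, n = 3) and a log2 fold change of 0.74 (standard error 0.14, 95% interval 0.42 to 1.05, unadjusted p = 0.000304, adjusted p = 0.760 from edgeR). In DESeq2 the adjusted p of *Insig1* was 0.0622 at a log2 fold change of 0.73, and over the alternatives the fold change stayed between 0.64 and 0.83. *Ank2*, an adapter between membrane proteins and the cytoskeleton, had 4.21, 4.20 and 4.47 CPM with DMSO and 2.11, 1.84 and 2.02 CPM with CP, a log2 fold change of -1.11 (95% interval -1.64 to -0.57, adjusted p = 0.976 from edgeR). *Gstm2*, a glutathione transferase, had 0.416, 0.955 and 0.861 CPM with DMSO and 1.54, 2.08 and 2.97 CPM with CP, a log2 fold change of 1.54 (95% interval 0.72 to 2.37). The mean of *Gstm2* with DMSO was 0.744 CPM in GRKO cells and 17.9 CPM in parental cells, so its GRKO values lie near the lower end of its range here.

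Apart from *Gstm2*, the genes of this low level rest on few reads with at least 1 of the treatments. *Snph*, which tethers mitochondria in axons, had 0 counts in every DMSO culture and 8, 25 and 17 counts with CP, at least 17.97-fold higher against a floor of 3 counts over the group. It passed the filter through GRKO CP 2, GRKO CP 3 and parental CP 2 alone, all with CP, so its place among the genes higher with CP is partly fixed by the filter. *Kcnab2*, a potassium channel subunit, had 0, 0 and 1 counts with DMSO and 4, 8 and 7 with CP, a ratio of 20.5 with a counting interval from 3.26 to 851. *Arhgap33*, which encodes a GTPase-activating protein, had 2, 2 and 1 counts with DMSO and 21, 9 and 11 with CP, a log2 fold change of 3.08. In the other direction, *Ptprf*, a receptor tyrosine phosphatase, had 3, 6 and 7 counts with DMSO and 0 in every CP culture, at least 4.95-fold lower. *Ptpn7*, a phosphatase of blood cells, had 4, 3 and 3 counts with DMSO and 0 with CP, and *Arrdc4*, an arrestin-like protein, had 2, 2 and 6 counts and 0, both at least 3.09-fold lower. *Adam8*, a membrane protease, had 21, 14 and 8 counts with DMSO and 2, 2 and 5 with CP, a log2 fold change of -2.07. In all these genes the treatments do not overlap, the adjusted p from edgeR is 0.760 or 0.976, and the bounds and counting intervals cover counting error alone and not the spread between cultures. *Ptpn7* and *Kcnab2* have means of 51.9 and 12.4 CPM in parental DMSO cultures, so GRKO cells express little of either gene even without the drug.

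Genes of cholesterol synthesis, which the sterol-sensing factor SREBP2 drives, leaned the same way in GRKO cells. All 18 members were tested and all 18 had a log2 fold change above 0 in GRKO cells, where 53.1% of all genes did, with a median of 0.32 beside 0.02. An unadjusted p under 0.05 was reached by 10 of 18 (1.36% of all genes reached it with CP higher). The groups did not overlap in 10 (4.59% of all genes with CP higher), and 0 were DEGs (0% of all genes). Like the other lists here, this list was chosen with earlier results of these data known, so its counts are not independent evidence. The summed level of the list was 1577, 1525 and 1605 CPM with DMSO and 1851, 1990 and 2125 CPM with CP. Every CP culture is above every DMSO culture, including CP 1, which resembles DMSO 2 elsewhere. Over the alternatives, with DESeq2's size factors as the other scaling among them, the median of the list stayed between 0.29 and 0.33 and 15 to 18 members were above 0. The count with an unadjusted p under 0.05 was 4 without CP 3 and 5 without DMSO 2. With the ribosomal protein share of each culture as a covariate, an alternative chosen after seeing the data, the median was 0.33 and 11 members had an unadjusted p under 0.05.

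Along the pathway, *Hmgcs1*, which makes HMG-CoA, had 138, 153 and 145 CPM with DMSO and 197, 189 and 181 CPM with CP, a log2 fold change of 0.38 (95% interval 0.15 to 0.61). Every CP culture is above every DMSO culture for *Hmgcs1*. *Mvd*, a decarboxylase of the mevalonate branch, had 149, 102 and 149 CPM with DMSO and 153, 217 and 351 CPM with CP, a log2 fold change of 0.85 that CP 3 carries most. *Fdps*, which makes farnesyl diphosphate, had 0.29, *Idi1*, the isomerase before it, had 0.07 and *Fdft1*, squalene synthase, had 0.22. *Sqle*, which oxidizes squalene, had 75.4, 70.2 and 70.3 CPM with DMSO and 87.4, 88.6 and 100.04 CPM with CP, a log2 fold change of 0.35. The later enzymes had *Lss* at 0.29, *Cyp51* at 0.35, *Msmo1* at 0.34, *Sc5d* at 0.03 and *Dhcr7* at 0.35. Of these later enzymes *Msmo1* and *Dhcr7* do not overlap between treatments (4.59% of all genes with CP higher).

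The control genes went the same way. *Srebf2*, the gene of SREBP2, had 65.6, 61.6 and 54.6 CPM with DMSO and 79.9, 69.4 and 76.7 CPM with CP, a log2 fold change of 0.31 (95% interval -0.01 to 0.64). *Stard4*, a sterol carrier, had 0.15, with overlap. In parental cells 6 of the 18 were above 0, with a median of -0.06, and *Insig1* had 62.9, 60.9 and 49.8 CPM with DMSO and 47.2 and 43.0 CPM with CP, a log2 fold change of -0.36. No sterol gene passed the interaction test, in which *Insig1* had the smallest adjusted p, 0.0801 from edgeR, so a difference between the genotypes in this list is not shown. The ribosomal protein and mitochondrial shares are lower in CP 2 and CP 3 than in every DMSO culture, and their part in the sterol values was not tested beyond the covariate above.

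**Figure D4:**
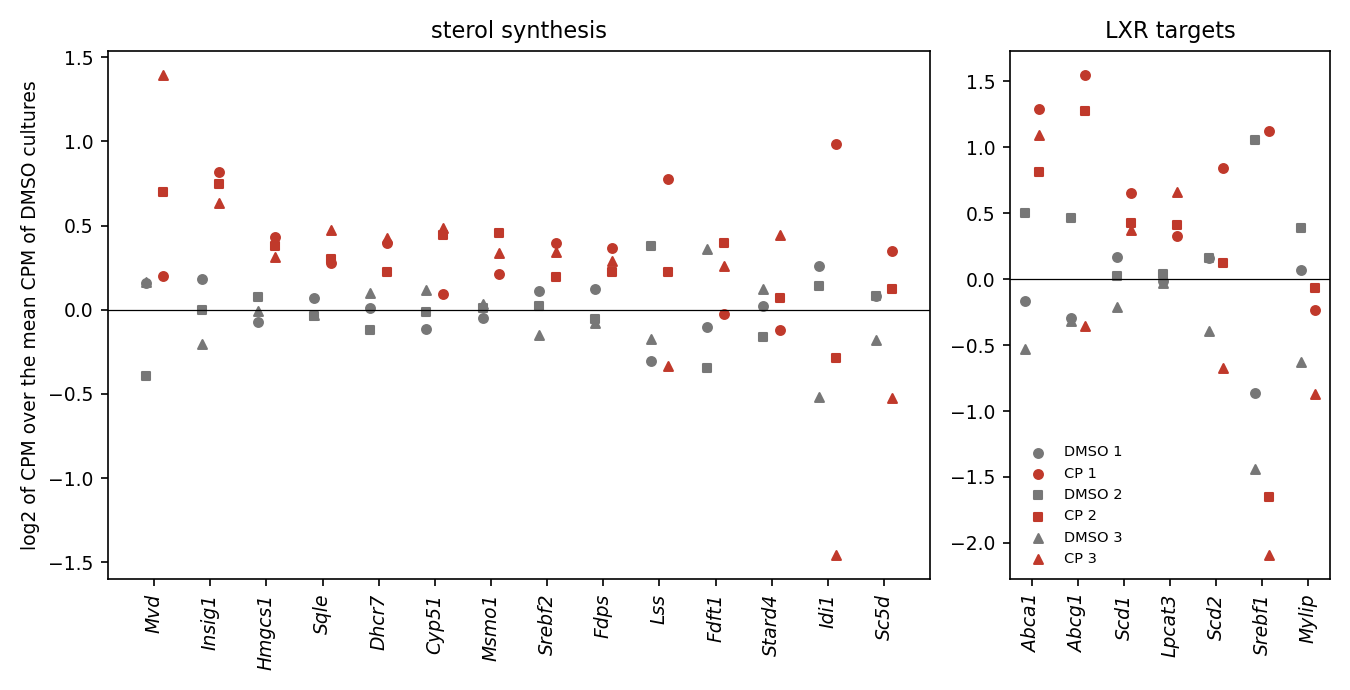
Levels of 14 of the 18 sterol synthesis genes and of the 7 LXR targets in each of the 6 GRKO cultures. Values are relative to the mean of the 3 DMSO cultures of the same gene, on a log2 scale. The other sterol synthesis genes are not drawn. Each point is a culture, gray for DMSO and red for CP, and circles, squares and triangles mark cultures 1, 2 and 3, a shared number meaning no pairing. For most of the sterol genes drawn the CP points lie above 0, whereas *Abcg1*, *Scd2* and *Srebf1* among the LXR targets follow single cultures. The 2 panels have different vertical scales. No gene shown passed the adjusted threshold.

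Targets of the liver X receptors (LXR), which sense oxidized cholesterol and drive its export, were less uniform. All 7 were tested, 5 had a log2 fold change above 0, the median was 0.47, 4 had an unadjusted p under 0.05, all higher with CP (1.36% of all genes), and in 3 the groups did not overlap, with CP higher (4.59% of all genes). *Abca1*, which exports cholesterol, had 7.48, 11.9 and 5.81 CPM with DMSO and 20.5, 14.7 and 17.9 CPM with CP, a log2 fold change of 1.07 (95% interval 0.48 to 1.67). *Lpcat3*, which remodels phospholipids, had 41.2, 42.9 and 40.8 CPM with DMSO and 52.3, 55.5 and 65.6 CPM with CP, a log2 fold change of 0.47 (95% interval 0.22 to 0.73). *Scd1*, a fatty acid desaturase that SREBP factors also drive, had 120, 109 and 92.5 CPM with DMSO and 168, 144 and 139 CPM with CP, a log2 fold change of 0.49 (95% interval 0.19 to 0.78). In these 3 genes every CP culture is above every DMSO culture. *Abcg1*, a further exporter, had 1.03 but CP 3 lies below the DMSO cultures. *Scd2*, the most abundant member, had 0.23, *Srebf1*, the gene of SREBP1, had -0.14 and *Mylip*, a ubiquitin ligase, had -0.35, all with overlap. *Srebf1* had 14.6 CPM in DMSO 2 and 15.2 CPM in CP 1 against 1.64 to 3.84 CPM in the other 4 cultures, a further gene of the first component. The summed level of the list was 653, 659 and 468 CPM with DMSO and 1026, 684 and 494 CPM with CP, so as a sum the treatments overlap. Over the alternatives the median ran from 0.39 to 0.72, the upper end with the ribosomal protein covariate. Parental cells had 6 of 7 above 0, with a median of 0.44, and no LXR target passed the interaction test or was a DEG in either genotype.

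Since the sterol genes share a direction, their promoters were searched for 8 letter patterns on both strands, together with those of the LXR list, the GR targets and the study's list of 25 genes. The windows are of 300 bases, from RefSeq on GRCm38.p6, and 10 of the 18 sterol genes matched, with 12 windows, as did 4 of 7 LXR targets with 6, 21 of 25 GR targets with 31 and 16 of the study's 25 with 26. The sterol element TCACCCCAC is in 0.551% of all 32851 windows and in 8.33% of the sterol windows, which is *Hmgcs1* alone, and TCACNCCAC, which includes it, is in 1.24% of all windows and in those of *Hmgcs1* and *Adamts1*. ATTGGC is in 14.7% of all windows, 66.7% of the sterol windows, 50% of the LXR windows, 29% of the GR target windows and 15.4% of the windows of the study's list. CCAAT, whose reverse strand lies within ATTGGC so that the 2 overlap, is in 37.4% of all windows, 83.3% of the sterol windows, 66.7% of the LXR windows, 41.9% of the GR target windows and 38.5% of those of the study's list. The direct repeats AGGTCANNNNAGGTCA (0.0152% of all windows) and TGACCNNNNTGACC (0.0457%) are in none of the 4 lists. The palindromes GNACANNNTGTNC (0.475%) and GNACANNNTGTTC (0.271%), of which the first includes the second, are in the windows of *Mt1* and *Sgk1* alone. A match describes letters and is not a binding site. *Hmgcs1* is shown because its window holds the sterol element and *Insig1* because it had the smallest p of the list, and the 2 patterns in capitals, TCACCCCAC and ATTGGC, were chosen after the matches had been seen. The windows are chr13:119690101-119690400 for *Hmgcs1* and chr5:28071162-28071461 for *Insig1*, both read 5′ to 3′ on the plus strand.
Hmgcs1: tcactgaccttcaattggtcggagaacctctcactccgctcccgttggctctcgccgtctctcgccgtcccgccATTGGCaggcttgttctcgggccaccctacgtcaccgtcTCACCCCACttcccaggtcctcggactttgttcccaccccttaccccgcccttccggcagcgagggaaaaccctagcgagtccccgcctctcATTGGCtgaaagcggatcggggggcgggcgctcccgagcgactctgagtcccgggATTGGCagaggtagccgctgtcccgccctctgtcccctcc
Insig1: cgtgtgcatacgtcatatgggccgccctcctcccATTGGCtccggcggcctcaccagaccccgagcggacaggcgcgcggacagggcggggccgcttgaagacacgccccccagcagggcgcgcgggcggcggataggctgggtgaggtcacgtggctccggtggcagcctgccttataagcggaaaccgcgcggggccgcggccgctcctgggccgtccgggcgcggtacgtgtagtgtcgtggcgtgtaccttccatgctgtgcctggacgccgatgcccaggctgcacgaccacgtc

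Several receptors that could take up a steroid in place of GR were silent. Of 19 receptors and related genes 10 were tested, 4 with a log2 fold change above 0 and 6 below 0, with a median of -0.04, and the interval lay within 1.5-fold in 3 and within 2-fold in 6. The mineralocorticoid receptor *Nr3c2*, the progesterone receptor *Pgr*, the xenobiotic receptors *Nr1i2* (PXR) and *Nr1i3* (CAR), the estrogen receptor *Esr2*, *Rxrg* and *Hsd11b1*, which reactivates glucocorticoids, had 0 counts in all 6 cultures. The retinoid partners *Rxra* and *Rxrb* had 0.19 and 0.26, the LXR gene *Nr1h2* had -0.06, and *Esr1* had -0.47 with an interval from -1.84 to 0.89. *Vdr*, the vitamin D receptor, had the smallest p of the list, at 0.519, 0.668 and 0.269 CPM with DMSO and 1.54, 0.473 and 1.33 CPM with CP, a log2 fold change of 1.15 (unadjusted p = 0.0237, adjusted p = 0.976 from edgeR). CP 2 lies among the DMSO values of *Vdr*, so the treatments overlap.

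Targets of these other sensors gave little to test. Of 11 PXR and CAR targets 4 were tested, with a median of 0.15, and *Cyp3a11*, *Cyp3a13*, *Cyp2b10*, *Cyp2c29*, *Abcc2*, *Abcc3* and *Ugt1a1*, enzymes and pumps of drug disposal, had 0 counts. The drug exporter *Abcb1a* had 0.364, 0.668 and 1.13 CPM with DMSO and 2.05, 1.18 and 1.26 CPM with CP, a log2 fold change of 1.05 (95% interval 0.09 to 2.01, unadjusted p = 0.0338, adjusted p = 0.976 from edgeR), with no overlap (4.59% of all genes with CP higher). Its more abundant neighbor *Abcb1b* had 0.31 (95% interval -0.04 to 0.67), and *Por*, the electron donor of cytochromes P450, had -0.02. Of 6 AhR targets 3 were tested, all below 0, with a median of -0.07: *Cyp1b1* had -0.80 (95% interval -1.80 to 0.19), *Nqo1* had -0.07 and *Tiparp* had 0.00 with changes beyond 1.24-fold excluded. Of 4 Hedgehog targets, a pathway whose transducer *Smo* binds sterols, 2 were tested, *Gli1* at 0.52 and *Hhip* at -0.30, with a median of 0.11 and wide intervals. All 10 NRF2 targets, the oxidative stress response, were tested, 5 above 0 and 5 below 0, with a median of -0.02 and 8 within 2-fold. *Txnrd1*, thioredoxin reductase, excludes changes beyond 1.23-fold, and *Slc7a11*, the cystine transporter, had the smallest p of that list at -0.85 (95% interval -1.82 to 0.13).

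Stress programs held no member with an unadjusted p under 0.05, which 1.89% of all genes reached, so their count of 0 does not set them apart. Of 15 genes of endoplasmic reticulum stress, 12 had a log2 fold change above 0 and 3 below 0, with a median of 0.15, 0 with an unadjusted p under 0.05 and 11 within 2-fold. *Hspa5*, the main chaperone of that compartment, had 0.17 (95% interval -0.16 to 0.50), and *Sesn2*, a sestrin that stress induces, had 19.1, 14.6 and 16.9 CPM with DMSO and 21.5, 20.2 and 19.9 CPM with CP, at 0.28. Of 11 heat shock genes, 5 were above 0 and 6 below, with a median of -0.08 and 10 within 2-fold, and their most abundant member *Hsp90ab1*, a subunit of the chaperone that holds GR, had 0.24 (95% interval -0.11 to 0.60). Of 11 p53 targets, 7 were above 0 and 4 below, with a median of 0.06 and 9 within 2-fold. *Cdkn1a*, the inhibitor of cell cycle kinases, had 0.26 (95% interval -0.05 to 0.56), and *Bax*, which permeabilizes mitochondria in cell death, had 41.1, 26.8 and 30.1 CPM with DMSO and 52.4, 48.4 and 49.7 CPM with CP. *Bax* and *Zmat3*, at log2 fold changes of 0.62 and 0.20, were the 2 of 11 without overlap, with CP higher (4.59% of all genes).

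Growth and signaling lists also held no DEG, where 0% of all genes were DEGs. Of 21 proliferation genes, 8 were above 0 and 13 below, with a median of -0.06, and the interval lay within 1.5-fold in 10 and within 2-fold in 17. *Top2a*, topoisomerase of dividing cells, had 0.10 and *Mki67* had 0.07, while *Mcm2*, a subunit of the replicative helicase, had 79.5, 79.2 and 75.8 CPM with DMSO and 60.3, 64.0 and 44.1 CPM with CP, at -0.48 (95% interval -1.02 to 0.06). *Mcm2* and *Ccnb1*, at -0.29, were the 2 of 21 members without overlap, in each case with CP lower (2.96% of all genes). *Cdk1* spans the widest range in the list, with 279, 346 and 188 CPM with DMSO and 331, 124 and 45.3 CPM with CP, again high in DMSO 2 and CP 1. Of 12 immediate early genes, 5 were above 0 and 7 below, with a median of -0.20 and 5 within 2-fold, and *Fosb* was the 1 of 12 without overlap, with CP higher (4.59% of all genes), at 0.46. *Ier3* had 0.32 (95% interval -0.02 to 0.67), with overlap.

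Inflammatory genes, which glucocorticoids are used to repress, ranged from absent to abundant. Of 15 genes of NF-kB and inflammation 10 were tested, 7 above 0 and 3 below, with a median of 0.09 and 4 within 2-fold. *Icam1*, *Il1b* and *Tnf* had 0 counts in all 6 cultures, whereas *Csf1*, the growth factor of macrophages, had 212 to 372 CPM with DMSO and a log2 fold change of 0.05 (95% interval -0.49 to 0.59), and *Ptgs2*, cyclooxygenase 2, had 0.11 (95% interval -0.47 to 0.69). *Nfkb2*, at 0.08, was the 1 of 10 without overlap, with CP higher (4.59% of all genes). Of 11 interferon genes 10 were tested, 4 above 0 and 6 below, with a median of -0.21 and 4 within 2-fold. *Gbp2*, a GTPase that interferon induces, had an unadjusted p of 0.0458 (adjusted p = 0.976 from edgeR) at -1.25, on few counts and with overlap. *B2m*, the light chain of MHC class I, had 0.02 and excludes changes beyond 1.34-fold. Of 13 clock genes, 6 were above 0 and 7 below, with a median of -0.07 and 9 within 2-fold, and *Cry1* had 0.42 (95% interval -0.09 to 0.93) while the abundant *Tef* had 0.22. Across the 24 lists, 0 members were DEGs in GRKO cells, as were 0% of all genes.

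Outside the lists, the largest differences among genes with a mean of at least 1 CPM and no overlap lay close to the lower end of the measured range. Higher with CP after *Gstm2* were *Lipg*, an endothelial lipase, at a log2 fold change of 1.48 (95% interval 0.53 to 2.44), and *Flt4*, the receptor of lymphatic growth factors, at 1.37 (95% interval 0.55 to 2.20). *Lipg* had 0.519, 0.859 and 0.377 CPM with DMSO and 1.65, 1.61 and 1.70 CPM with CP, the tightest set of CP values of these genes. *Bbs1*, of the complex that serves cilia, had 1.34 (95% interval 0.28 to 2.39), and the noncoding *A430046D13Rik* had 1.33 (95% interval -0.13 to 2.79). Lower with CP were *2610021A01Rik* at -1.61 (95% interval -3.13 to -0.09), *Tnfrsf21*, a death receptor, at -1.35 (95% interval -3.19 to 0.49), *Vsig10l* at -1.34 (95% interval -2.75 to 0.08) and *Zfp3* at -1.29 (95% interval -2.19 to -0.39). The value of *Tnfrsf21* ran from -1.87 to -0.35 over the alternatives. *Atg4c*, a protease of autophagy, had 4.57, 5.73 and 3.07 CPM with DMSO and 3.02, 1.18 and 1.58 CPM with CP, at -1.21 (95% interval -2.10 to -0.32). CP 1 and DMSO 3 nearly meet in *Atg4c*, and the adjusted p of all 10 genes was 0.976 from edgeR. None of them had a parental log2 fold change that passed the test. Of the 303 genes whose positions were looked up, 133 overlap another annotated gene, 106 of them on the other strand, and their counts may be less certain because featureCounts, at the default settings that the study's methods name, does not separate strands. *Kcnab2*, *Ank2*, *Lpcat3*, *Cyp51*, *Cebpb*, *Mvd* and *Fdft1* are among them, whereas *Insig1*, *Abca1*, *Snph* and *Tsc22d3* are not.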

How the data were processed

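RNA of 6 GRKO and 5 parental cultures was sequenced from 3′ ends, and the authors aligned the reads to GRCm38 and deposited an integer count per gene for 39179 genes. Counting was by featureCounts, version not stated, at default settings by the study's methods, which do not separate strands. Groups follow the labels. Genes with at least 0.5 CPM in at least 3 of the 11 cultures were kept (12525). The 4 groups were fitted together with TMM factors in edgeR 4.0.16 (quasi-likelihood, on R 4.3.3 with limma 3.58.1). Adjustment was by Benjamini-Hochberg. The quasi-dispersion estimate, edgeR's earlier method, was settled after both methods had been run on the data. Intervals are estimates plus or minus a t quantile times the standard error. DESeq2, which the study's methods name without a version, was an alternative, run here as version 1.42.0. Further alternatives were other filters, scalings, a replicate block, GRKO cultures alone, limma voom intervals, a pseudocount of 0.1, other fold minimums and leaving out each culture. Members and lists were chosen with earlier results of these data known. Genes named are *Nr3c1*, members of the GR target list and of the study's list, the 5 with the smallest p and the 5 with the largest difference without overlap in each direction, the 5 largest parental DEGs in each direction, and from each other list the most abundant member and that with the smallest p. Some genes the rule names are not described. Further genes, among them *Ctgf*, *Cdk1*, *Zfp697*, *Dkk2*, *Fstl3* and other list members, were named after their values were seen. The pipeline was tested on simulated data. Replicate numbers were not treated as pairs.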

Additional observations from a re-analysis of the deposited data

Results flagged for a closer look

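The interaction test of edgeR covered 12525 genes. By that test the effect of CP differed between parental and GRKO cells in 13 of the genes named by rule (0.295% of all genes). Many of the named genes were picked as GR targets, as members of the study's list or as the largest parental DEGs, so they are not an unselected list. The values are parental minus GRKO log2 fold changes. In 10 genes that parental cells express more with CP, both parental CP cultures lay above all 3 parental DMSO cultures. Among the general GR targets the difference was 3.14 for *Tsc22d3* (adjusted p = 0.000332 from edgeR), 3.00 for *Per1* (0.00415), 1.30 for *Sgk1* (0.00927) and 3.64 for *Rgs2* (0.000332). For the metallothioneins it was 3.70 for *Mt2* (3.48e-05) and 1.99 for *Mt1* (0.00585). The study's signature adds *Ctla2a* at 4.29 (0.00275), *Adamts1* at 1.91 (0.00502) and *Fam46b* at 2.35 (0.00349), and *Aldh1a1* had 5.81 (0.00585). All 10 are DEGs in parental cells, and none is a DEG in GRKO cells. In the other direction *Prkcb* had -3.41 (0.00415) and *Spink2* -2.88 (0.00785), both lower in parental CP cultures than in every parental DMSO culture.

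*Ptprf* had 6.13 (adjusted p = 0.0322 from edgeR), a value that depends on a GRKO group with 0 counts in all 3 CP cultures and 3, 6 and 7 counts with DMSO. Parental cells had 6.96, 6.47 and 5.76 CPM with DMSO and 11.7 and 10.6 CPM with CP, and the parental log2 fold change of 0.80 was not a DEG. The fitted value of *Ptprf* has no finite interval and is not a bound.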

How the results depend on the processing

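GRKO cells had 0 DEGs under all 16 alternatives. Of 111 values of the comparisons, 93 kept their size within the limits set, and the other 18 are counts. Direction was not kept by the median over parental DEGs in GRKO cells, which ran from -0.06 to 0.08 and changed sign in 5 of 16, nor by the median of all genes, which was 0 or lower in 4 of 14 and at most 0.04. Genes with an unadjusted p under 0.05 numbered 134 with at least 10 counts required in every culture, where fewer genes were tested, and 161 to 1502 with each culture left out, 1502 without GRKO CP 1. Parental DEGs excluded by GRKO intervals were 245 of 251 with DESeq2, 63 of 63 with the replicate block, 306 of 321 with the ribosomal protein share as a covariate (chosen after seeing the data), and 31 to 130 with each culture left out. The difference between genotypes was called in 128 genes with DESeq2, 64 without a filter, 81 with the covariate and 17 to 43 with each culture left out. The cause was not tested. With the quasi-dispersions of edgeR 4, also added after seeing the data, 276 genes had an unadjusted p under 0.05, with 0 DEGs. The share of genes within 1.5-fold ran from 24.3% to 49.3% and within 2-fold from 46.5% to 79.7%. Among single genes, 1153 of 1266 log2 fold changes over 93 genes moved by less than the spread between replicates. In 34 of the 93 genes the sign differed between settings, among them *Igf2bp1* (-0.29 to 1.01), *Anxa1* (-1.37 to 0.25), *Krt10* (-1.81 to 0.36), *Dusp1* (-1.23 to 0.30) and *Fkbp5* (-0.71 to 0.15). Leaving out a parental CP culture leaves 1, assumed to vary like the others. Same-numbered cultures had a mean correlation of 0.0696 over 3 pairs. Depth limits what can be bounded below 1 CPM, and intervals cover the cultures of 1 knockout line.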
